A study of Danio rerio with 69 samples.

Results

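Solute carriers are membrane proteins that move sugars, amino acids, ions, metals, nucleotides and other small molecules across cell or organelle membranes. Their genes carry names that begin with slc, a family number, a letter and a member number. The genes described here are all those whose probe set had a single gene symbol of that form, except 3 symbols set aside by the rule (slc1a2b, slc1a3a and slc4a1a). Where a gene had several such probe sets, the set with the highest mean level over all arrays stood for it. This gave 134 genes, measured by 155 probe sets, of 8793 genes with a single symbol on the array. Of them, 116 had a single probe set and 18 had several. Membership followed the name. As a result, slc4a1ap, which encodes an adaptor protein of an anion exchanger, and slc7a6os, a gene named for lying opposite slc7a6, are members by name without being carriers.

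Tissue came from zebrafish with a transgene in which the promoter of aanat2 drives green fluorescent protein, and all groups share this transgenic background. The aanat2 enzyme catalyses a step of melatonin synthesis in the pineal. Pineal glands were dissected by hand under fluorescence, and the matched brain tissue lacked the pineal and the eyes. Fish lived at 28.5 °C with 14 h of light and 10 h of dark, and each tissue was taken at night and by day from fish of 3, 5 and 10 days (larval here), 3 months, and 1 to 2 years (adult). A 1-colour Affymetrix zebrafish array was used for each sample, 69 arrays in 20 groups of 2 to 5 biological replicates, 38 of pineal and 31 of brain. The youngest fish gave 7 pineal and 7 brain arrays, 5-day fish 9 and 5, 10-day fish 8 and 7, 3-month fish 6 and 6, and the oldest fish 8 and 6.

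The pineal gland of fish detects light with its own photoreceptors and releases melatonin at night. Photoreceptors are among the most energy-demanding cells of the nervous system, and neurons, glia and photoreceptors divide the uptake of glucose, the export of lactate and the handling of ions between different carriers. Vesicular carriers of the slc18 and slc32 families load transmitters into synaptic vesicles and are used as markers of the neurons that release those transmitters.

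Values below are log2 intensities, that is, the deposited intensity plus 16 on a log2 scale after quantile normalization, and differences are on the same log2 scale unless a fold is named. Each gene was read by a different probe set, so levels of different genes cannot be ordered. A gene is called changed when limma's adjusted p, corrected over all 15502 probe sets tested, was below 0.05 and the difference was at least 2-fold. For night against day the adjusted p alone was used. Of the 134 genes, 111 exceeded an intensity of 100 on at least 10 arrays and 23 did not. Of those 23, only slc15a1b and slc26a2 were called in a comparison of tissue, age or time of day. Where most arrays of a group lay under an intensity of 100, the size of a difference depends on the added constant.

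All 11 pineal photoreceptor markers were higher in pineal than in brain at each age, and their summed intensity was 57669 to 112031 in adult pineal, against 594 to 5660 in adult brain. Markers of other tissues differed between groups as well. The 15 muscle markers summed to a median intensity of 1332 in larval pineal, against 72187 in larval brain, and 15, 15 and 14 of them were lower in pineal at 3, 5 and 10 days. Pooled over the 3 larval ages, their sums ran over 627 to 35736 in pineal and 11720 to 165319 in brain, which overlap. Within each larval age the tissues were apart. At 3, 5 and 10 days the highest pineal sums were 35736, 7857 and 3306. The lowest brain sums were 57990, 60188 and 11720. In adults the muscle sums ran over 1204 to 19804 in pineal and 985 to 2025 in brain. The 15 skin markers summed to 34679 to 159509 in adult pineal, against 2646 to 14325 in adult brain, and all 15 were higher in pineal at both adult ages. The 12 neuronal markers summed to 21144 to 41777 in adult pineal, against 63353 to 76151 in adult brain. The 4 markers of myelin and its cells summed to a median of 2036 in adult pineal, against 17001 in adult brain, and to 426 in larval pineal, against 3814 in larval brain. Of these, 1, 2 and 2 were lower in pineal at 3, 5 and 10 days and 3 at each adult age, with mbpa, a myelin protein gene, at -3.22 and -3.97 in adults. None of the marker genes was at an intensity of 0. The control ratio of the 3' to the 5' end of gapdh was above 3 on 1 of 35 night arrays and on 10 of 34 day arrays. The median intensity of all probe sets averaged over arrays was 183.1 in adult pineal and 139.5 in adult brain, and 142.8 in larval pineal and 151.8 in larval brain. In such bulk tissue, fewer cells of a type and less RNA per cell cannot be told apart.

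Averaged over the 5 ages and both times of day, 5 solute carriers were higher in pineal than in brain and 4 were lower. The 5 were the mitochondrial phosphate carrier slc25a3a, the sodium-sulfate cotransporter slc13a1, the hexose transporter family gene slc2a11b, slc3a2b, the heavy chain that brings slc7 amino acid exchangers to the membrane, and the potassium-chloride cotransporter slc12a7b. The 4 lower genes were slc32a1, the vesicular carrier of GABA and glycine, slc18a3a, the vesicular carrier of acetylcholine, slc25a4, an ADP/ATP translocase of the mitochondrial membrane, and slc2a3a, whose mammalian counterpart is the main glucose transporter of neurons. These 9 are 6.72% of the members, and 5.79% of all probe sets were called in the same comparison, 2.51% higher and 3.28% lower. The median difference of the members was 0.00 and that of all probe sets was 0.02. Without the fold limit, 30 members were higher in pineal and 34 were lower. All 9 calls held under every alternative setting and with each of the 69 arrays left out in turn.

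**Figure D1:**
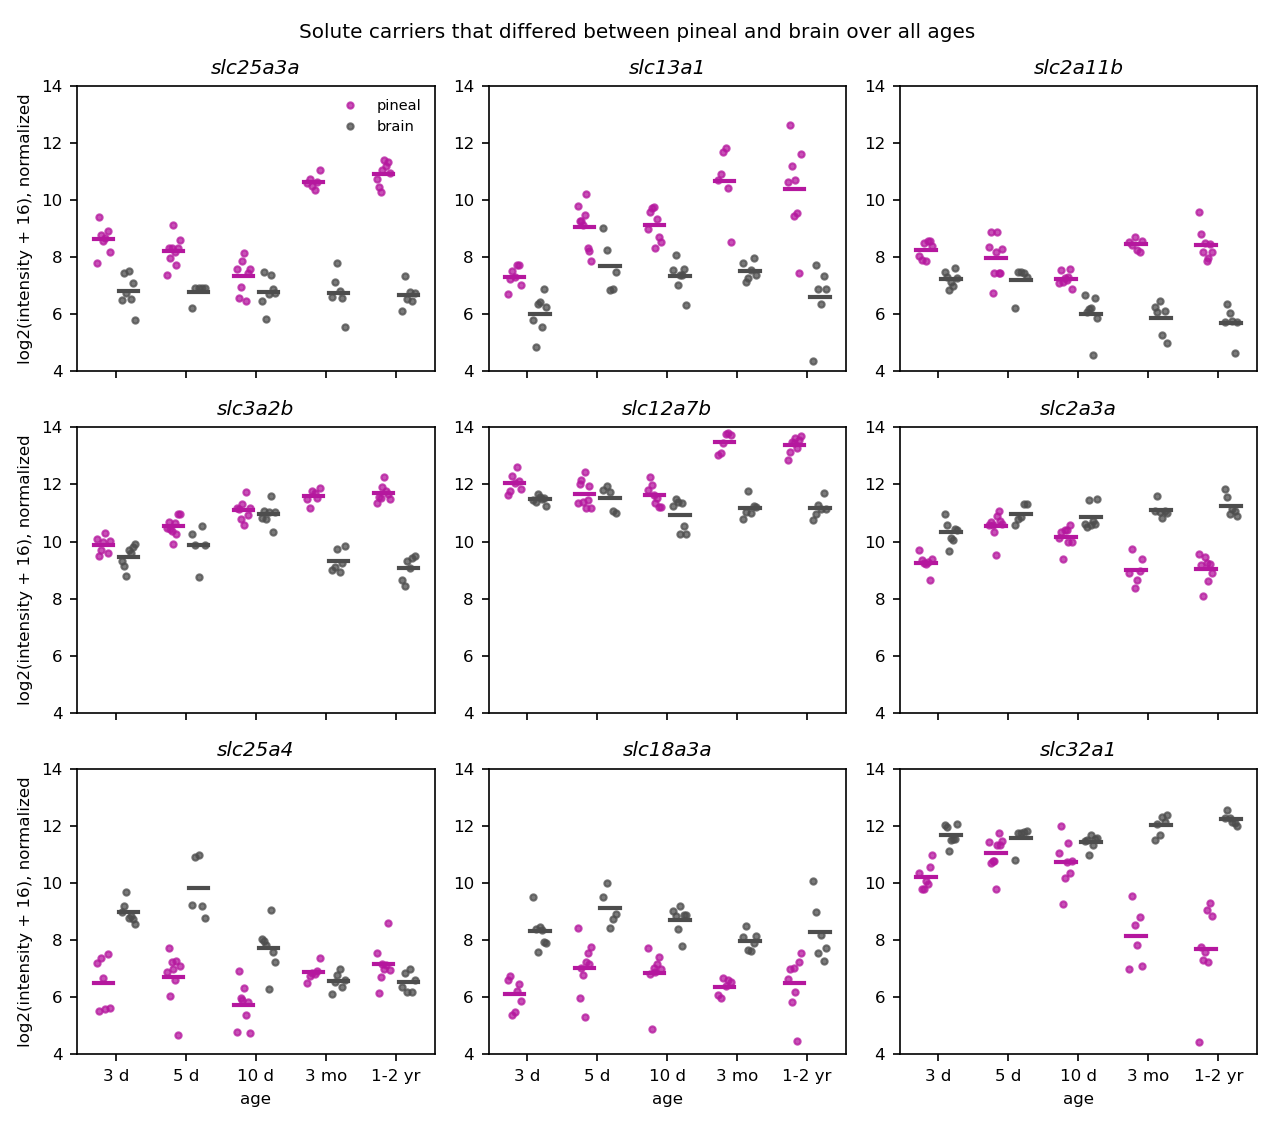
Log2 intensity of the 9 solute carriers called in the pineal against brain comparison over all ages, by age on the horizontal axis, with pineal arrays left of brain arrays at each age. Each point is 1 array and each line is the mean of its group. For slc25a3a the adult pineal arrays lie between 10.28 and 11.40, above every brain array of any age, and for slc32a1 the adult pineal arrays lie between 4.42 and 9.53, below every brain array.

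Over all ages slc25a3a (2.39) and slc13a1 (2.30) had the widest rises, also without scaling, with median centring and with constants of 1 and 64. At 3 months the log2 intensity of slc25a3a was 10.37 at the lowest, 10.61 at the median and 11.04 at the highest of 6 pineal arrays, against 5.57, 6.70 and 7.78 on 6 brain arrays. In the oldest fish it was 10.28, 11.01 and 11.40 on 8 pineal arrays, against 6.12, 6.64 and 7.34 on 6 brain arrays. The groups lay far apart at both adult ages. Larval pineal was closer to brain, with 7.81, 8.69 and 9.40 in pineal and 5.81, 6.75 and 7.52 in brain at 3 days, and with 6.46, 7.52 and 8.15 in pineal and 5.83, 6.76 and 7.49 in brain at 10 days. The groups were apart at 3 days and overlapped at 10 days. In the limma fit, pineal exceeded brain by 4.26 ± 0.28 (SE), or 19.2-fold, at 1 to 2 years (adjusted p = 3.62e-20) and by 0.56 ± 0.27 at 10 days (adjusted p = 0.267). Brain intensities were under 100 on 4 of 6 arrays at each adult age, so the size depends on the added constant. The 1-to-2-year difference was 4.5 with a constant of 1 and 3.73 with a constant of 64.

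The sulfate cotransporter slc13a1 was higher in pineal at 5 and 10 days and at both adult ages, with wider spread. At 1 to 2 years it ranged over 7.45, 10.67 and 12.63 (lowest, median, highest) on 8 pineal arrays and over 4.38, 6.88 and 7.74 on 6 brain arrays, so that the lowest pineal array fell within the brain range. At 3 months the groups were apart, at 8.54, 10.82 and 11.82 in pineal and 7.13, 7.46 and 7.98 in brain. The difference was 3.80 ± 0.44 (SE), 14.0-fold, at 1 to 2 years in the limma fit (adjusted p = 1.08e-10). The 5-day call (1.42) was lost on omission of any 1 of 50 arrays, and the 10-day call (1.76) was kept.

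Chloride, amino acid and hexose carriers completed the higher group. On adult pineal arrays slc12a7b lay between 12.84 and 13.79, against 10.75 to 11.76 on adult brain arrays. slc3a2b was at 11.35, 11.61 and 12.27 on the 8 pineal arrays of 1 to 2 years, against 8.44, 9.20 and 9.49 on the 6 brain arrays, and slc2a11b was at 7.85, 8.34 and 9.57 against 4.64, 5.76 and 6.35. None of the 3 genes overlapped between the tissues at either adult age. Their differences at 1 to 2 years were 2.22 ± 0.17 for slc12a7b, 2.62 ± 0.20 for slc3a2b and 2.73 ± 0.28 for slc2a11b (SE), with limma adjusted p of 6.59e-18, 1.16e-17 and 2.14e-12. For slc2a11b 6 of 6 brain arrays were under an intensity of 100 at each adult age, so its size depends on the added constant. At 3 days slc3a2b was at 9.50, 9.98 and 10.31 in pineal and 8.78, 9.60 and 9.90 in brain, which overlap.

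The vesicular carriers of GABA and glycine and of acetylcholine were lower in pineal. slc32a1 had a log2 intensity of 4.42, 7.67 and 9.28 on the 8 pineal arrays of 1 to 2 years, against 11.98, 12.21 and 12.57 on the 6 brain arrays. At 3 days it had 9.77, 10.07 and 10.97 in pineal, against 11.12, 11.55 and 12.05 in brain. The tissues were apart at 3 days and at both adult ages, and overlapped at 5 and 10 days. The fall was 4.55 ± 0.34 (SE), or 23.5-fold, at 1 to 2 years (limma adjusted p = 1.02e-17), and the difference at 3 days was -1.50 ± 0.34 (adjusted p = 0.0016). The acetylcholine carrier slc18a3a was called lower in pineal throughout, at all 5 ages, the only member called at every age, with differences between -2.20 at 3 days and -1.62 at 3 months. Its intensity was under 100 on 7 of 7 pineal arrays at 3 days and 5 of 6 at 3 months, so these sizes depend on the added constant. Its 3-month values ran over 5.97 to 6.65 in pineal and 7.61 to 8.48 in brain, without overlap. At 1 to 2 years 1 pineal array reached 7.53 and the lowest brain array was at 7.26, so the groups overlapped, and the 1-to-2-year call was lost without the 11 arrays of a gapdh ratio above 3. The vesicular nucleotide carrier slc17a9b was at 5.86, 6.31 and 7.32 in pineal and 4.6, 6.49 and 6.99 in brain at 1 to 2 years, which overlap, and it was not called at any age or over all ages (-0.04, limma adjusted p = 0.89). The other transmitter carriers, slc6a11a for GABA and slc6a3 for dopamine, were not called between the tissues, and slc6a3 did not exceed a log2 intensity of 7.08 on any array. Of 12 neuronal markers, 9 were lower and 2 higher in adult pineal at each adult age, and their part in these results was not tested. At 3 months and 1 to 2 years gad1b and gad2, which make GABA, were at -3.72 and -4.24 and at -4.71 and -4.70, while inaa was at 3.41 and 3.57 and atp1a3b at 1.30 and 1.52.

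The glucose transporter slc2a3a was at 8.10, 9.19 and 9.57 on pineal arrays of 1 to 2 years, against 10.88, 11.11 and 11.84 on brain arrays. The groups did not overlap, and the difference was -2.21 ± 0.22 (SE), 4.63-fold lower in pineal (limma adjusted p = 2.2e-13). slc25a4 followed a different course: it was lower in larval pineal, at 5.52, 6.67 and 7.51 in pineal and 8.56, 8.84 and 9.69 in brain at 3 days, and at 4.68, 6.99 and 7.70 in pineal and 8.77, 9.22 and 10.99 in brain at 5 days. In adults it was at 6.14, 7.05 and 8.61 in pineal and 6.16, 6.47 and 6.98 in brain at 1 to 2 years, which overlap. Its limma differences were -2.49, -2.99 and -2.03 at 3, 5 and 10 days, and 0.31 and 0.63 at 3 months and 1 to 2 years, neither of these 2 called (adjusted p = 0.617 and 0.203). The mammalian counterpart of slc25a4 is the form of heart and skeletal muscle, and the muscle marker list moved with it: it summed to 11720 to 165319 in larval brain and 985 to 2025 in adult brain. The part of muscle tissue in the slc25a4 values was not tested.

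Taken age by age, the number of solute carriers called between the tissues was 8, 9 and 9 at 3, 5 and 10 days (3 higher in pineal and 5 lower, 3 and 6, and 5 and 4), and 37 and 31 at 3 months and 1 to 2 years (20 higher and 17 lower, and 20 and 11). As shares of the members these are 5.97%, 6.72%, 6.72%, 27.6% and 23.1%. Of all probe sets, 4.77%, 5.18%, 3.64%, 21.2% and 21.2% were called at the same ages, and in each adult comparison 10.9% were higher and 10.3% lower. Of the adult calls, 20 of 37 and 19 of 31 held under every alternative and with each array left out. The adult split depended on scaling. Without scaling between arrays it was 27 higher and 10 lower at 3 months and 28 and 9 at 1 to 2 years, with the median of all probe sets at 0.27 and 0.28, and with median centring it was 18 and 18 at 1 to 2 years. Among the larval calls, scaling moved the split at 3 days to 2 higher and 6 lower and that at 10 days to 3 and 5.

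At both adult ages, 17 members were called higher in pineal and 10 were called lower, of 134, against 8.52% of all probe sets higher at both and 8.07% lower at both. The 17 were slc12a7b, slc13a1, slc16a3b, slc16a9a, slc20a1a, slc25a3a, slc25a55a, slc25a55b, slc26a5, slc2a10, slc2a11b, slc38a5b, slc3a2b, slc43a1a, slc4a2a, slc4a4b and slc5a12. The 10 were slc18a3a, slc1a4, slc24a4a, slc25a32a, slc25a38b, slc25a48, slc2a3a, slc30a9, slc32a1 and slc39a6. The 2 adult ages were tested on separate arrays.

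**Figure D2:**
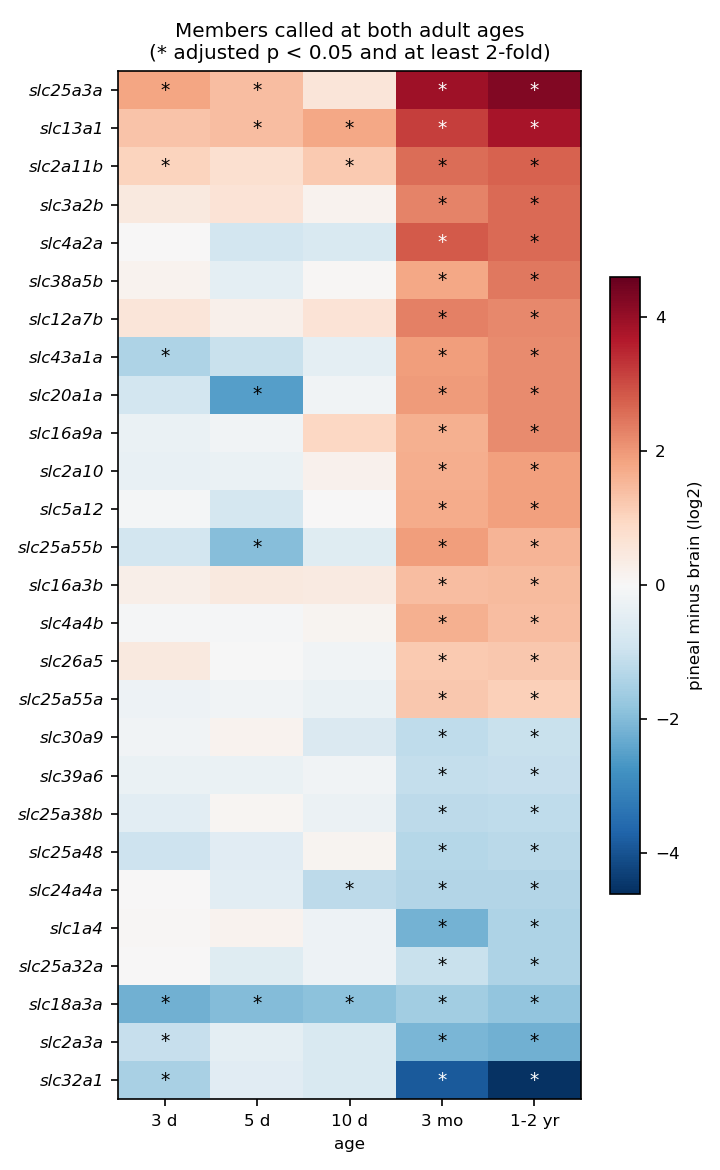
Pineal minus brain difference in log2 intensity at 3, 5 and 10 days, 3 months and 1 to 2 years for the 27 members called at both adult ages, from limma. Red is higher in pineal, blue is lower, and a star marks a called difference. The adult columns run from 4.26 for slc25a3a to -4.55 for slc32a1, and slc20a1a, slc43a1a and slc25a55b are blue with a star at a larval age and red in both adult columns.

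The counts by class stand beside 10.9% of all probe sets higher in pineal and 10.3% lower at each adult age. No class was tested as a set. Among the 21 sugar, monocarboxylate and carboxylate carriers, 7 were higher in pineal and 2 lower at 3 months, and 5 and 1 at 1 to 2 years, with medians of 0.35 and 0.20. These included, beside slc2a11b, the hexose family gene slc2a10 (1.68 at 3 months and 1.90 at 1 to 2 years), the monocarboxylate family gene slc16a9a (1.62 and 2.16), slc16a3b, a lactate exporter of glycolytic cells (1.42 and 1.46), and the sodium-coupled monocarboxylate carrier slc5a12 (1.70 and 1.88). In the oldest fish slc16a3b was at 11.93, 12.44 and 12.70 in pineal and 10.46, 10.96 and 11.21 in brain, and slc16a9a at 10.56, 11.45 and 12.81 in pineal and 8.24, 9.22 and 9.88 in brain. Neither gene overlapped between the tissues at either adult age. The slc16a3b call was lost with median centring at both ages. Brain arrays were under an intensity of 100 on 6 of 6 for slc5a12 and 4 of 6 for slc2a10 at each adult age.

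Of 22 inorganic ion and pH carriers, slc13a1 among them, 6 were higher and 1 lower at 3 months, and 7 and 1 at 1 to 2 years, with medians of -0.14 and 0.23. At each of these ages 10.9% of all probe sets were higher and 10.3% lower. The sulfate transporter slc26a2, called at 1 to 2 years (1.29), lay under an intensity of 100 on 4 of 8 pineal arrays and 6 of 6 brain arrays. The anion exchanger slc4a2a was at 11.32, 11.67 and 12.06 in pineal and 8.74, 9.10 and 9.40 in brain at 1 to 2 years, without overlap. Its difference was 2.81 ± 0.33 at 3 months and 2.60 ± 0.31 at 1 to 2 years (SE, limma adjusted p = 1.68e-10 and 1.49e-10), and its other probe sets gave 1.5 and 0.77 at the older age. The sodium-bicarbonate cotransporter slc4a4b (1.62 and 1.43), the sodium-phosphate cotransporter slc20a1a (1.98 and 2.17) and the prestin gene slc26a5 (1.21 and 1.24) were higher, slc26a5 not with median centring. The potassium-dependent sodium-calcium exchanger slc24a4a was lower at both ages (-1.33 and -1.35). Brain arrays of slc4a4b were under an intensity of 100 on 3 of 6 at 3 months and 4 of 6 at 1 to 2 years.

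Of 21 amino acid and peptide carriers, 3 were higher and 4 lower at 3 months, and 4 and 1 at 1 to 2 years. At each of these ages 10.9% of all probe sets were higher and 10.3% lower. slc38a5b, a glutamine and neutral amino acid carrier, was at 8.13, 9.12 and 10.88 in pineal and 5.99, 7.13 and 7.23 in brain at 1 to 2 years (2.41 ± 0.27, SE, limma adjusted p = 2.37e-11). The large neutral amino acid carrier slc43a1a was at 7.63, 8.51 and 10.76 in pineal and 6.26, 6.49 and 7.07 in brain (2.18 ± 0.33, adjusted p = 1.06e-07). slc1a4, a serine and neutral amino acid carrier, was lower, at 6.32, 6.83 and 7.63 in pineal and 7.92, 8.37 and 8.82 in brain (-1.42 ± 0.36, adjusted p = 0.00106). All 3 were apart between the tissues at both adult ages. Brain arrays of slc43a1a were under an intensity of 100 on 4 of 6 at 3 months and 5 of 6 at 1 to 2 years. The synaptic vesicle amino acid carrier slc6a17 (-1.05) and the glutamine carrier slc38a2 (-1.18) were called lower at 3 months alone. The slc6a17 call was lost on omission of any 1 of 6 arrays and the slc38a2 call without day replicate 1 of 3-month pineal.

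Of 25 mitochondrial carriers, 4 were higher and 4 lower at 3 months, and 4 and 3 at 1 to 2 years, with medians of -0.32 and -0.11. For this and the next classes, 10.9% of all probe sets were higher and 10.3% lower at each of these ages. Beside slc25a3a, the carrier family genes slc25a55b (1.91 and 1.55) and slc25a55a (1.24 and 1.11) were higher. slc25a38b, the carrier that brings glycine into mitochondria for heme synthesis (-1.21 and -1.17), slc25a48 (-1.32 and -1.25) and the folate and FAD carrier slc25a32a (-1.02 and -1.43) were lower. At 1 to 2 years slc25a55a lost its call without night replicate 2 of pineal, and at 3 months slc25a32a lost it on omission of any 1 of 5 arrays. For slc25a55b 6 of 6 brain arrays were under an intensity of 100 at each of these ages. Pineal arrays of slc25a48 were under 100 on 5 of 6 at 3 months and 6 of 8 at 1 to 2 years. No metal carrier of 14 was higher in adult pineal, and the zinc carriers slc39a6 (-1.11 and -1.07) and slc30a9 (-1.16 and -1.01) were lower. For slc30a9 the other probe sets gave -0.14 and -0.56 at 3 months and -0.07 and 0.23 at 1 to 2 years, and its call was lost over the mean of its probe sets. The 1-to-2-year call of slc39a6 was lost on omission of any 1 of 3 arrays, and that of slc30a9 on omission of any 1 of 7. With the replicate number as a block, slc30a9 came just under the 2-fold limit at 1 to 2 years and lost its call, as it did without scaling, and without the arrays of a gapdh ratio above 3 it was at -0.76 (adjusted p = 0.0552). None of the 8 nucleotide sugar and Golgi carriers was called at either adult age. Of the 16 carriers of vitamins, nucleosides, lipids and organic ions, none was higher, and 2 and 1 were lower.

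Skin, immune and red cell genes were also higher in adult pineal. All 15 skin markers were called at 3 months and at 1 to 2 years, with medians of 3.09 and 3.50, and 6 and 5 of 10 immune markers were, with medians of 1.64 and 1.09. Of 9 red cell markers, 4 and 2 were called higher. The part of these cells in the higher adult solute carriers was not tested.

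Larval calls were fewer, and 4 members were called in opposite directions at a larval and an adult age, as were 1.35% of all probe sets: slc20a1a, slc25a55b, slc2a2 and slc43a1a. The phosphate carrier slc20a1a was at 4.33, 4.76 and 6.80 on 9 pineal arrays at 5 days, against 6.89, 7.59 and 8.91 on 5 brain arrays. In the oldest fish it was at 9.88, 10.42 and 11.12 on pineal arrays, against 7.46, 8.17 and 9.54 on brain arrays. Both pairs of groups were apart, in opposite directions, with differences of -2.52 ± 0.40 (limma adjusted p = 3.75e-06) and 2.17 ± 0.38 (adjusted p = 4.24e-06; SE). slc43a1a was at 5.59, 8.46 and 8.60 in pineal and 8.99, 9.34 and 9.79 in brain at 3 days, a call of -1.43 that was lost without day replicate 2 of 3-day pineal, the array at 5.59 (-0.97 without it). The hexose transporter slc2a2 was called lower in pineal at 5 days (-1.85) and higher at 3 months (1.81), and slc25a55b was -1.95 at 5 days. Intensities of slc2a2 were under 100 on 8 of 9 pineal and 2 of 5 brain arrays at 5 days. At 3 months they were under 100 on 3 of 6 and 6 of 6. For slc20a1a and slc25a55b 8 of 9 pineal arrays were under 100 at 5 days. The 5-day call of slc2a2 was lost without night replicate 2 of 5-day brain.

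Further larval differences were found for the urea transporter slc14a2, higher in pineal at 3 days (1.64 ± 0.45, SE, limma adjusted p = 0.0117) and 10 days (1.63 ± 0.43, adjusted p = 0.0114). At 10 days it was at 7.71, 9.12 and 10.72 in pineal and 5.87, 7.76 and 8.30 in brain, which overlap. The 3-day call was lost without the arrays of a gapdh ratio above 3 (1.35, adjusted p = 0.0633). At 3 days 2 of 7 pineal and 7 of 7 brain arrays of slc14a2 were under an intensity of 100. The nucleoside carrier slc29a2 was higher in pineal at 5 days (1.85 ± 0.39, limma adjusted p = 0.000457), where the groups were apart. It exceeded an intensity of 100 on only 10 of the 69 arrays. At 5 days 3 of 9 pineal and 5 of 5 brain arrays were under 100.

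**Figure D3:**
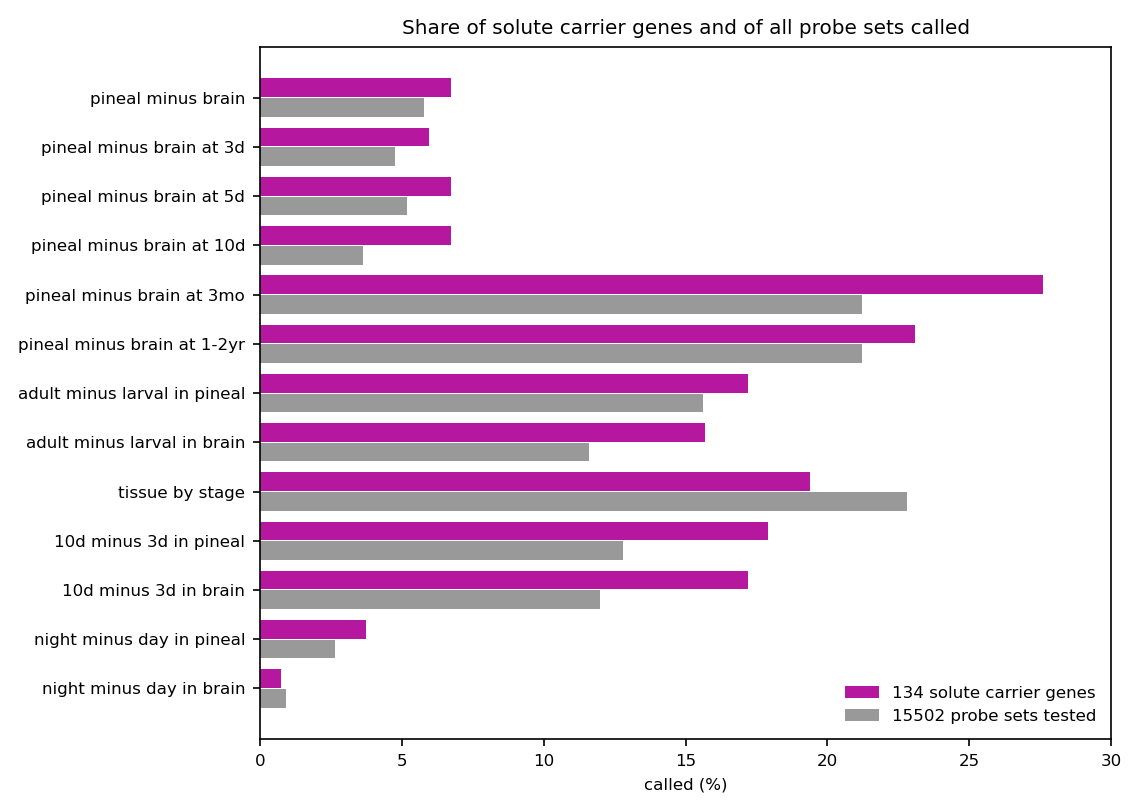
Percent of the 134 solute carriers and of all 15502 probe sets called in 13 comparisons, as horizontal bars from 0. The members' share is highest in the adult tissue comparisons, at 27.6% and 23.1% against 21.2% and 21.2% of all probe sets, and it is below that of all probe sets for tissue by stage (19.4% against 22.8%) and for night against day in brain (0.746% against 0.922%).

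The adult and larval pineal gland differed in 23 solute carriers, 15 higher in adults and 8 lower, or 17.2% of the members, against 15.6% of all probe sets (8.46% higher and 7.13% lower). The median difference was 0.07 for the members and -0.05 for all probe sets. The split was 21 and 5 without scaling, where the median of all probe sets was 0.28, and 12 and 10 with median centring. Of the 23 calls, 14 held under every alternative and with every array left out. Cell markers differed over the same arrays. The 9 red cell markers summed to a median intensity of 27741 in adult pineal and 1161 in larval pineal, with 5 higher and 2 lower in adults, and the 10 immune markers to 18166 and 4005, with 6 higher and none lower. Of 12 neuronal markers, 7 were lower and 2 higher in adult pineal, with gad1b at -2.32 and gad2 at -3.13, and 10 of 11 photoreceptor markers were higher. Of 15 skin markers, 6 were higher and 3 lower. The part of these cells in the pineal changes was not tested.

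The sodium-phosphate cotransporter slc20a1a had the widest difference, also with added constants of 1 and 64. It was at 8.62, 10.32 and 11.19 (lowest, median, highest) on 14 adult pineal arrays, against 4.33, 6.10 and 8.22 on 24 larval pineal arrays. The groups did not overlap, and the difference was 4.17 ± 0.24 (SE) in the limma fit (adjusted p = 1.79e-23). The deposited intensity was under 100 on 20 of the 24 larval arrays and on none of the 14 adult arrays, and the difference was 4.73 with a constant of 1 and 3.37 with a constant of 64. slc25a3a was at 10.28, 10.74 and 11.40 in adults and 6.46, 8.17 and 9.40 in larvae, and slc4a2a at 11.08, 11.67 and 12.07 in adults and 6.70, 9.04 and 10.99 in larvae. Neither overlapped between the stages, and the differences were 2.73 ± 0.18 and 2.65 ± 0.19 (adjusted p = 4.9e-21 and 7e-19). The other probe sets of slc4a2a rose by 1.11 and 0.86. slc12a7b was at 12.84, 13.47 and 13.79 in adult pineal and 11.16, 11.79 and 12.62 in larval pineal, also apart (1.66 ± 0.10, adjusted p = 7.65e-22).

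Further rises in adult pineal were those of slc13a1 (2.06), slc16a9a (1.67), slc5a12 (1.57), slc2a10 (1.52), slc25a55b (1.48), slc3a2b (1.13) and slc26a5 (1.13). The rises of slc25a44a (1.07), slc35h1 (1.05), slc26a10 (1.01) and the iron carrier slc11a2 (1.00) lay near the 2-fold limit, and their calls were lost on omission of any 1 of 3, 4, 16 and 16 arrays, in that order. Larval pineal arrays were under an intensity of 100 on 23 of 24 for slc5a12, 21 of 24 for slc35h1 and 18 of 24 for slc25a55b. For slc26a10, 24 of 24 larval and 9 of 14 adult arrays were under 100.

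Among the falls, slc32a1 went furthest. It was at 4.42, 7.79 and 9.53 in adult pineal, against 9.27 to 12.0 with a median of 10.74 in larval pineal, with a slight overlap, and fell by 2.76 ± 0.22 (SE), or 6.77-fold (limma adjusted p = 1.69e-17). The urea transporter slc14a2 was at 4.47, 6.01 and 7.10 in adult pineal, against 4.53, 7.73 and 10.72 in larval pineal (-2.11 ± 0.28, adjusted p = 2.88e-09). slc16a9b (-1.56), slc38a5b (-1.42), slc29a2 (-1.36), slc25a32a (-1.14), slc1a4 (-1.06) and the large neutral amino acid carrier slc43a2a (-1.0) were lower as well. The call of slc1a4 was lost on omission of any 1 of 4 arrays and that of slc43a2a on omission of any 1 of 19. Adult pineal arrays were under an intensity of 100 on 11 of 14 for slc14a2 and 13 of 14 for slc29a2. For slc29a2 15 of 24 larval arrays were under 100 too.

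Adult brain differed from larval brain in 21 solute carriers, 7 higher and 14 lower, or 15.7% of the members, against 11.6% of all probe sets (4.99% higher and 6.61% lower). The members' median was 0.07 and that of all probe sets 0.05. slc38a5b was at 5.99, 7.21 and 8.07 on 12 adult brain arrays, against 10.16, 10.90 and 12.02 on 19 larval brain arrays. slc43a1a was at 6.26, 6.65 and 7.07 in adult brain, against 8.42, 9.12 and 10.48 in larval brain. Both amino acid carriers were apart between the stages. In adults slc38a5b fell by 3.59 ± 0.19 and slc43a1a fell by 2.50 ± 0.22, or 5.67-fold (SE), with limma adjusted p of 1.73e-25 and 8.28e-15. For slc43a1a 9 of 12 adult brain arrays were under an intensity of 100, so its size depends on the added constant.

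slc25a4 was at 6.09, 6.56 and 6.98 in adult brain and 6.29, 8.77 and 10.99 in larval brain (-2.27 ± 0.26, SE, limma adjusted p = 3.4e-11), beside muscle markers that were lower in adult brain in 15 of 15 genes with a median of -4.48 and skin markers that were lower in 15 of 15 with a median of -2.98. Other markers were higher in adult brain: the red cell markers summed to a median of 14520 in adult brain and 3019 in larval brain, with 5 of 9 higher and 2 lower (hbaa1 at 8.73), and the myelin markers to 17001 and 3814, with 2 of 4 higher (mbpa at 3.07). Of 10 immune markers, 3 were higher and 3 lower, with cd74a at 5.76 and mpx at -2.53. The part of these tissues in the brain changes was not tested. slc2a2 (-1.61), the phosphate carrier slc34a2b (-1.46), the GABA carrier slc6a11a (-1.44), slc25a55b (-1.36), slc25a43 (-1.15), slc43a2a (-1.14), slc16a12b (-1.13), slc38a4 (-1.07), slc2a11b (-1.05) and slc16a9b (-1.05) were lower too. The peptide carrier slc15a1b was also called lower (-1.14), but it lay under an intensity of 100 on 12 of 12 adult and 16 of 19 larval brain arrays, and the difference was -0.60 with a constant of 64, which ended the call. Higher in adult brain were slc6a17 (1.46), slc25a38b (1.39), slc30a9 (1.32, with 0.59 and 0.77 on its other probe sets), the phosphate carrier slc20a2 (1.28), slc25a48 (1.19), the Golgi sodium-proton exchanger slc9a7 (1.08) and slc22a7b.1 (1.07). Most arrays of both stages were also under an intensity of 100 for slc2a2 (12 of 12 adult and 15 of 19 larval) and slc6a11a (12 of 12 and 14 of 19). The same held for slc22a7b.1 (8 of 12 and 18 of 19), and for slc25a48 18 of 19 larval arrays were under 100. Adult arrays were under 100 on 12 of 12 for slc25a55b and slc2a11b. The count was 11 of 12 for slc16a12b and slc34a2b, and 10 of 12 for slc25a4. Neuronal markers were higher in adult brain in 6 of 12 genes. Of the 21 calls, 8 held under every alternative and with each array left out. Calls lost without 1 to 3 arrays were those of slc15a1b, slc16a12b, slc16a9b, slc22a7b.1, slc2a11b and slc38a4.

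Both stage comparisons used separate arrays, though same-numbered pineal and brain arrays of 1 to 2 years correlated in their deviations (0.087 to 0.368). In both tissues 3 members, slc16a9b, slc38a5b and slc43a2a, were lower in adults. None was higher in both, and slc25a55b was higher in adult pineal and lower in adult brain. Of all probe sets, 1.3% were lower in both tissues, 1.49% higher in both and 1.09% opposite. The difference between the tissues in the change from larva to adult was tested directly, and 26 members were called, 19 with a larger rise or smaller fall in pineal and 7 with the reverse. That is 19.4% of the members, against 22.8% of all probe sets (12.3% and 10.5% in these directions), with medians of -0.01 and -0.10. Without scaling the split was 30 and 6, with a median of all probe sets of 0.30, and with median centring it was 17 and 11. slc20a1a (3.25 ± 0.36), slc4a2a (3.21 ± 0.29), slc43a1a (3.02 ± 0.30), slc25a4 (2.97 ± 0.35) and slc25a55b (2.84 ± 0.39) led in pineal and slc32a1 (-3.31 ± 0.32) led the reverse (SE), with limma adjusted p between 1.18e-14 and 1.31e-08. slc4a2a differed by 2.65 in pineal and -0.56 in brain. For slc43a1a and slc25a4 the brain level was lower in adults, and the pineal differences, 0.52 and 0.70, were below 2-fold. In the same test 15 of 15 muscle, 15 of 15 skin, 8 of 10 immune and 11 of 11 photoreceptor markers were called higher, with none lower. Their medians were 4.81, 3.17, 1.8 and 2.26. Of 12 neuronal markers, 9 were lower and 2 higher, with a median of -2.09. Of 9 red cell markers, 6 were higher and none lower, with a median of 1.1. Of 4 endothelial markers, 2 were higher and none lower, and of 4 myelin markers, 1 was higher and 2 were lower. The part of these cells in the 26 calls was not tested.

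**Figure D4:**
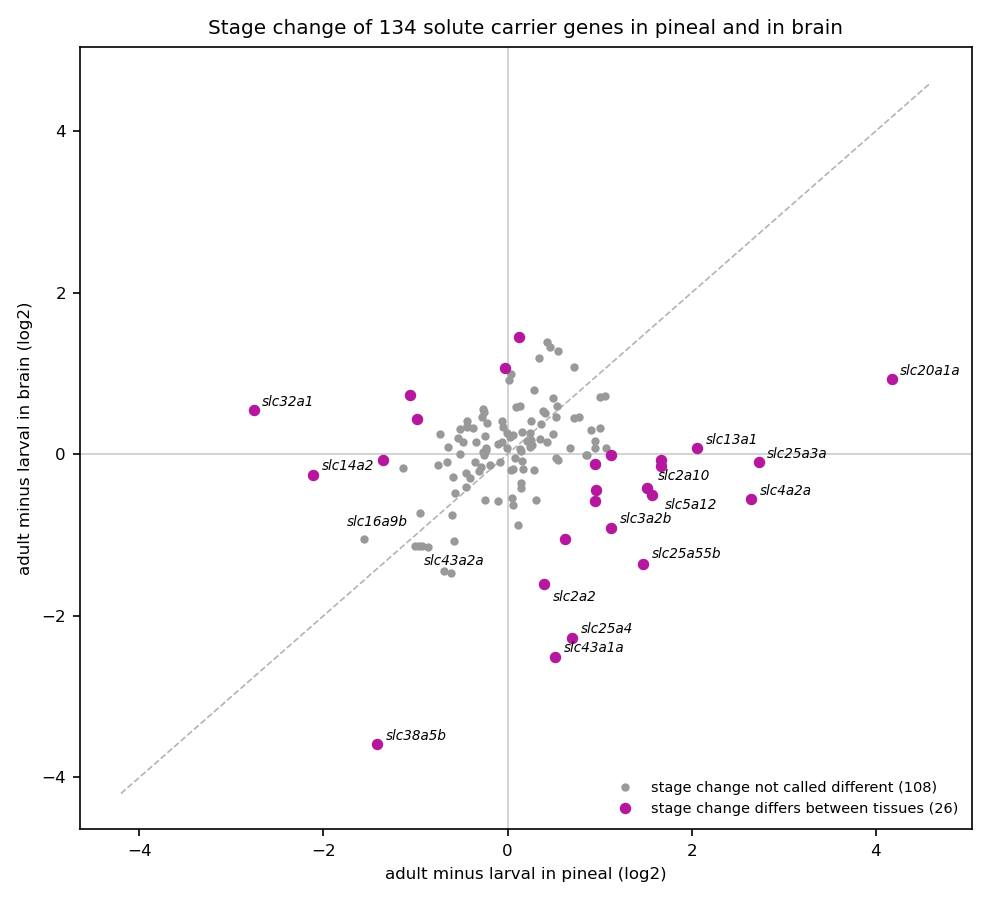
Adult minus larval difference in log2 intensity in pineal (horizontal) and brain (vertical) for the 134 solute carriers. The 26 coloured points are those whose difference between the tissues was called, and the dashed line marks equal change. slc20a1a lies at 4.17 in pineal and 0.93 in brain, slc32a1 at -2.76 in pineal, and slc38a5b at -1.42 in pineal and -3.59 in brain.

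Within larval life, 24 members differed between 10 and 3 days in pineal, 16 higher at 10 days and 8 lower, and 23 in brain, 14 higher and 9 lower. These are 17.9% and 17.2% of the members, against 12.8% and 12% of all probe sets. Of the members, 10 were higher at 10 days in both tissues (slc12a9, slc13a1, slc14a2, slc15a4, slc16a9a, slc22a2, slc25a43, slc3a2b, slc43a2a and slc7a8a), slc25a55a and slc25a55b were lower in both, and none was called in opposite directions. Of all probe sets, 3.03% were higher in both, 4.1% lower in both and 0.0387% opposite. The tissues were tested on separate arrays. Cell markers differed between these ages as well. In brain, 11 of 15 muscle markers and 7 of 15 skin markers were lower, with a median summed muscle intensity of 32300 at 10 days and 88720 at 3 days and a skin intensity of 27466 and 66838. In pineal, 5 of 15 skin markers (44650 and 90360), 3 of 15 muscle markers and 2 of 9 red cell markers (746 and 3966) were lower. So were 5 of 11 photoreceptor markers in pineal (11183 and 20745), with none higher. In brain 2 of 9 red cell markers (1826 and 6447) and 2 of 11 photoreceptor markers were lower as well. Immune markers were higher at 10 days, 3 of 10 in pineal and 2 of 10 in brain. In brain slc25a4, lower at 10 days (-1.26), moved with the muscle markers. The part of these cells in the changes was not tested.

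slc16a9a was at 10.53, 11.06 and 11.40 (lowest, median, highest) on 8 pineal arrays at 10 days, against 7.84, 8.20 and 8.52 on 7 pineal arrays at 3 days. In brain it was at 9.54, 10.08 and 10.39 on 7 arrays at 10 days, against 7.96, 8.40 and 9.24 on 7 arrays at 3 days. In both tissues the ages were apart, and the rise was 2.79 ± 0.30 in pineal and 1.53 ± 0.32 in brain (SE, limma adjusted p = 3.34e-11 and 0.000126). slc7a8a, a light chain that carries neutral amino acids together with slc3a2, was at 11.22, 11.49 and 11.91 at 10 days and 9.05, 9.82 and 10.75 at 3 days in pineal. In brain it lay between 11.67 and 12.17 at 10 days and between 9.44 and 10.72 at 3 days, also apart. The gene rose by 1.73 ± 0.22 in pineal and by 1.89 ± 0.23 in brain (adjusted p = 3.82e-09 and 1e-09). Its partner slc3a2b rose by 1.23 and 1.54.

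The mitochondrial carrier gene slc25a43 was at 9.72, 10.46 and 10.63 at 10 days and 6.77, 7.63 and 8.65 at 3 days in brain, without overlap (2.79 ± 0.28, SE, limma adjusted p = 1.67e-12), and rose by 1.68 in pineal. slc14a2 rose by 2.12 in pineal and by 2.13 in brain, slc13a1 by 1.82 and by 1.38, and the lysosomal peptide and histidine carrier slc15a4 by 1.39 and by 1.40. Brain arrays at 3 days were under an intensity of 100 on 7 of 7 for slc14a2 and slc13a1 and 5 of 7 for slc12a9. The sizes of these brain rises therefore depend on the added constant. For slc12a9 the rise of 1.71 in brain was not shared by its second probe set (-0.05). The brain call of slc13a1 was lost on omission of any 1 of 2 arrays, and the pineal call of the organic cation carrier slc22a2 (1.21) without day replicate 2 of 10-day pineal. For slc25a55b (-1.21 in pineal and -1.49 in brain) the pineal call was lost on omission of any 1 of 2 arrays and the brain call without day replicate 3 of 10-day brain. In pineal, slc25a55a fell by 1.67, slc6a11a fell by 1.55, slc29a2 fell by 1.44 and slc25a3a fell by 1.30, and in brain the zinc carriers slc39a13 and slc39a7 fell by 1.75 and by 1.56. Pineal arrays at 10 days were under an intensity of 100 on 8 of 8 for slc25a55b and slc29a2 and 5 of 8 for slc6a11a. For slc29a2 4 of 7 pineal arrays at 3 days were under 100 too. Between 1 to 2 years and 3 months, limma called no member in pineal or in brain, where it called 0.123% and 0.0516% of all probe sets, and 8 members in pineal and 1 in brain had an unadjusted p below 0.05.

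At night, 4 members were higher in pineal than by day and 1 was lower, averaged over the ages, or 3.73% of the members, against 2.64% of all probe sets. In brain 1 was higher, or 0.746%, against 0.922% of all probe sets. The same gene, slc43a2a, a carrier of large neutral amino acids such as phenylalanine and leucine, was the strongest in pineal and the single call in brain. The 2 comparisons used separate arrays. At 1 to 2 years, though, same-numbered pineal and brain arrays correlated in their deviations from group means (0.087 to 0.368). The calls in the 2 tissues may therefore not be independent. The counts moved with the processing: with array weights there were 3 calls in pineal and 16 in brain, without the arrays of a gapdh ratio above 3 there were 5 and 0, and omission of any 1 of 5 arrays left 3 in pineal.

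At 3 months slc43a2a had a log2 intensity of 10.39, 9.29 and 10.15 on the 3 night arrays of pineal, against 8.88, 8.47 and 9.10 on the 3 day arrays. In fish of 1 to 2 years it had 9.74, 10.72, 9.41 and 9.65 at night in pineal, against 7.78, 9.05, 8.40 and 8.60 by day. In both adult groups every night array was above every day array. At 3 days it had 9.94, 10.24, 10.51 and 9.97 at night in pineal, against 9.05, 9.55 and 9.45 by day, again apart, while the 5-day and 10-day groups overlapped. In brain it had 9.81, 9.68 and 9.87 at night, against 8.59, 8.38 and 8.62 by day at 3 months, and 9.66, 9.35 and 10.02 at night, against 7.75, 7.85 and 8.53 by day at 1 to 2 years. Both adult brain groups were apart.

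Averaged over the ages, slc43a2a was 0.79 ± 0.13 higher at night in pineal, 1.73-fold (SE, limma adjusted p = 3.36e-05), and 0.78 ± 0.15 higher in brain, 1.72-fold (adjusted p = 0.000709). The night mean was the higher at 5 of 5 ages in each tissue. By age the difference was 0.81, 0.43, 0.18, 1.13 and 1.42 in pineal and 0.64, 0.04, 0.34, 1.26 and 1.63 in brain, in order of age. Of these, the 1-to-2-year values were called (adjusted p = 0.0043 in pineal and 0.0042 in brain), and limma's F-test that the difference varies over age gave an adjusted p of 0.318 in pineal and 0.54 in brain. The difference between the tissues was 0.01 ± 0.20 (adjusted p = 0.999), and its wide error does not show that they respond alike. Day arrays held most of the high gapdh ratios: day replicates 1 and 2 of 1-to-2-year brain had ratios of 13.85 and 17.2, and the values above include them. Without the 11 arrays above 3 the pineal difference was 0.71 (adjusted p = 0.000299) and the brain difference 0.67 (adjusted p = 0.0618), so the brain call was lost. The 1-to-2-year pineal call was lost without day replicate 1 or night replicate 2, and the 1-to-2-year brain call without day replicate 1 or 2. The related gene slc43a2b was -0.49 in pineal and -0.33 in brain, neither called.

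**Figure D5:**
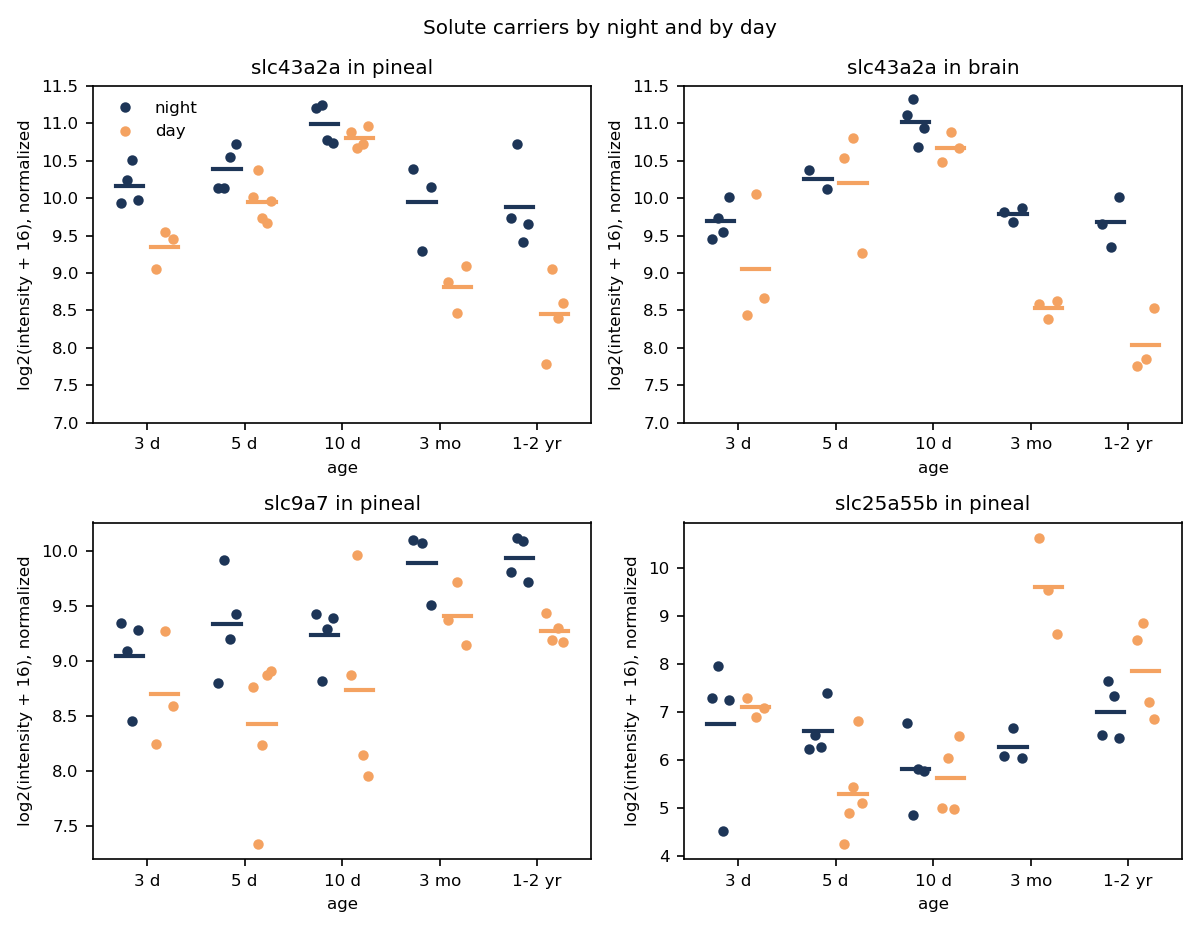
Log2 intensity by age for slc43a2a in pineal, slc43a2a in brain, slc9a7 in pineal and slc25a55b in pineal, with night arrays left of day arrays at each age. Each point is 1 array and each line is a group mean. The night points of slc43a2a lie above all day points at 3 of 5 ages in pineal and 2 of 5 in brain, and the 3 night arrays of slc25a55b at 3 months lie between 6.04 and 6.67, below day arrays of 8.63 to 10.62.

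The other night calls in pineal were smaller. slc9a7 averaged 9.49 at night and 8.91 by day (0.58 ± 0.15, SE, limma adjusted p = 0.0139). Its values were 9.81, 10.12, 10.09 and 9.72 at night and 9.44, 9.19, 9.30 and 9.17 by day at 1 to 2 years, the only age at which the night arrays stood above all day arrays. slc12a9 (0.62 ± 0.18, adjusted p = 0.035), a member of the cation-chloride cotransporter family, and slc16a9b (0.50 ± 0.14, adjusted p = 0.0362) were higher at night, and slc25a55a was lower (-0.47 ± 0.13, adjusted p = 0.0237). These 3 calls were lost on omission of any 1 of 17, 10 and 3 arrays, in that order, and the second probe set of slc12a9 gave 0.17. With the pineal arrays fitted alone, slc9a7 also lost its call. No member was called in the test of whether the night-day difference itself differed between tissues, where limma called 0.129% of all probe sets and 5 members had an unadjusted p below 0.05.

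Within single ages, limma called 2, 1, 0, 1 and 3 members between night and day in pineal, in order of age, against 1.3%, 0.419%, 0.587%, 0.252% and 0.419% of all probe sets. In brain it called 0, 0, 0, 0 and 2, against 0.0839%, 0.187%, 0.071%, 0.161% and 0.884% of all probe sets, and 12, 11, 7 and 10 members had an unadjusted p below 0.05 at the first 4 ages; in 10-day pineal 12 had. In 3-month pineal slc25a55b had 6.08, 6.67 and 6.04 at night, against 10.62, 9.54 and 8.63 by day. The groups lay well apart, and the difference was -3.33 ± 0.63 (SE), 10.1-fold lower at night (limma adjusted p = 0.00189). The night arrays were under an intensity of 100 on 3 of 3, so the size depends on the added constant. The gene was not called at the other ages, where the differences were -0.34, 1.30 and 0.18 at 3, 5 and 10 days and -0.86 at 1 to 2 years, nor in 3-month brain (-1.06). slc25a55b was the only member called in limma's F-test of variation over ages in pineal (adjusted p = 0.0168). The 3-month call was lost without day replicate 1 of 3-month pineal and with an added constant of 1. Its neighbour in name, slc25a55a, was lower at night in 1-to-2-year pineal, at 10.67, 11.67, 10.46 and 9.53 at night and 11.97, 11.95, 12.20 and 11.51 by day (-1.33 ± 0.27, adjusted p = 0.00517), where the groups overlapped and the call was lost without night replicate 4.

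In 5-day pineal the copper carrier slc31a1 had 9.88, 9.80, 9.91 and 9.87 at night, against 8.80, 8.33, 8.66, 9.08 and 8.45 by day. The groups were apart (1.20 ± 0.24, SE, limma adjusted p = 0.00666), and the call was lost over the mean of its probe sets. In 3-day pineal slc6a17 had 10.27, 10.92, 10.63 and 10.70 at night, against 9.30, 9.34 and 8.45 by day (1.60 ± 0.42, adjusted p = 0.0342). These groups were also apart, and the call was lost on omission of any 1 of 4 arrays. The iron carrier slc11a2 (1.22, adjusted p = 0.0477) was called at 3 days as well and lost that call on omission of any 1 of 29 arrays. In 1-to-2-year pineal slc32a1 had 9.04, 7.21, 9.28 and 8.83 at night, against 4.42, 7.76, 7.28 and 7.58 by day, which overlap (1.83 ± 0.45, adjusted p = 0.0389; lost on omission of any 1 of 4 arrays). In 1-to-2-year brain the fatty acid carrier slc27a1a was lower at night (-1.41 ± 0.36, adjusted p = 0.0384; lost on omission of any 1 of 5 arrays).

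Over the 16 comparisons of tissue, age and time of day, 70 of the 134 solute carriers were called in at least 1 and 64 in none, and 46.9% of all probe sets were called in at least 1. Of the 9 pairs of gene copies named a and b, several differed in their values. In adult against larval pineal slc16a9a rose by 1.67 and slc16a9b fell by 1.56, slc20a1a rose by 4.17 against -0.61 for slc20a1b, and slc25a3a rose by 2.73 against -0.49 for slc25a3b. In pineal against brain slc25a3a was at 2.39 and slc25a3b at -0.56, and slc3a2b at 1.23 and slc3a2a at 0.66. Differences between copies were not tested, and neither was whether a probe set also reads its gene's copy.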

How the data were processed

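Per the labels, a lipid tissue kit gave total RNA, which was biotin-labelled for 1-colour Affymetrix zebrafish arrays. For 15617 probe sets the authors deposited a linear intensity on each array. Trimmed by 2% at each end, these averaged 500.1 to 500.2 on every array, which marks scaling to a fixed target before deposit. The summarisation and background correction are not given in the sources used here. Array medians were 114.3 to 221.9, and the number of arrays limits the precision.

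Here 16 was added to the deposited intensity, log2 taken and the arrays quantile normalized, without 115 control probe sets in the tests. Of 15502 tested, 10795 had 1 symbol in the platform annotation, 135 several and 4572 none here; all 134 members were found in RefSeq's gene table. limma 3.58.1 in R 4.3.3 fitted a mean for each of 20 groups (49 residual and 14.3 prior degrees of freedom, trend on level); ages and times had equal weight, tests were two-sided, and Benjamini-Hochberg adjustment ran over all probe sets. The steps were tested on simulated data. The p-values reflect the spread between labelled biological replicates. Errors are standard errors.

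Members, classes, marker lists and tests were chosen with earlier results of these data known. Classes followed gene families, except that transmitter carriers were split from the rest of slc6. After values were seen, slc13a1, slc17a5, slc17a9b and slc5a6b were placed by what they carry, and slc4a1ap and slc7a6os in no carrier class. Any member could be named; values by array were given for the 10 largest called rises and falls between tissues, 8 between stages, 10 between night and day, 5 between other ages, the 3 strongest of each class and all transmitter carriers. Alternatives were other scaling, added constants of 1 and 64, a filter at an intensity of 100 on 10 arrays, fewer arrays in the fit, a replicate block, gapdh ratio (removal above 3, covariate), array weights, mean over probe sets, and each array left out. Figures used matplotlib 3.10.9.

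Replicate numbers were checked for pairing: pineal and brain arrays that share age, time and number correlated in their deviations at -0.017 to 0.368 over 31 pairs, 11 of them above 0.1. At 1 to 2 years 5 of 6 pairs were above 0.1 (0.087 to 0.368), among them all 3 day pairs. At no age were all pairs above 0.1, and the main fit did not take the numbers as pairs. With a median of 0.075 over the 31 pairs, the correlations cannot show whether the numbers mark pairs. A fit with the number as a block was therefore run as an alternative.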

Additional observations from a re-analysis of the deposited data

Results flagged for a closer look

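For 14 solute carriers and 9 groups of 4 or 5 arrays, 126 sets of values were examined for an array far from the others, and 7 stood apart by Dixon's test at 95%. Chance alone gives about 1 in 20, which is close to the share found here. In 1-to-2-year pineal, slc32a1 was 4.42 on day replicate 1 and 7.28 to 7.76 on the others, and slc25a4 was 8.61 on night replicate 3 and 6.93 to 7.12 on the others. In 5-day pineal by day, replicate 5 had 9.53 for slc2a3a, with 10.35 to 10.67 on the others, and 9.42 for slc16a9b, with 10.26 to 10.43 on the others. In brain at night, replicate 4 at 3 days had 12.05 for slc32a1, with 11.51 to 11.55 on the others, and 11.24 for slc12a7b, with 11.50 to 11.56 on the others. Replicate 4 at 10 days had 11.48 for slc2a3a, with 10.57 to 10.71 on the others. Day replicate 1 of 1-to-2-year pineal also had a gapdh ratio of 3.98.

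The change from larva to adult differed between pineal and brain, by limma's test of that difference, in 26 members. Muscle, skin, immune, red cell, endothelial, myelin, photoreceptor and neuronal markers differed in that test as well, and their part was not tested. Positive values, in log2, were 3.25 for slc20a1a, 3.21 for slc4a2a, 3.02 for slc43a1a, 2.97 for slc25a4, 2.84 for slc25a55b, 2.82 for slc25a3a, 2.17 for slc38a5b, 2.07 for slc5a12, 2.04 for slc3a2b, 2.01 for slc2a2, 1.99 for slc13a1, 1.94 for slc2a10, 1.81 for slc12a7b, 1.74 for slc16a9a, 1.67 for slc2a11b, 1.52 for slc4a4b, 1.41 for slc25a55a, 1.14 for slc26a5 and 1.07 for slc16a3b. Negative values were -3.31 for slc32a1, -1.86 for slc14a2, -1.79 for slc1a4, -1.42 for slc2a3a, -1.34 for slc6a17, -1.29 for slc29a2 and -1.10 for slc22a7b.1. Of the 26 calls, 21 held under every alternative and with each array left out; the others were slc16a3b, slc22a7b.1, slc25a55a, slc26a5 and slc29a2, each lost with median centring. The night-day difference of slc25a55b in pineal varied over the 5 ages by limma's F-test (adjusted p = 0.0168).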

How the results depend on the processing

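None of 235 gene results, all called in the main fit, reversed under any setting examined, but calls were lost. A constant of 64 ended 60, removal of arrays of a gapdh ratio above 3 ended 34, median centring 29 and no scaling 25. Some calls held under every alternative and with each array left out. Between tissues these were 4 of 8, 6 of 9 and 3 of 9 at 3, 5 and 10 days. They were 13 of 24 and 16 of 23 between 10 and 3 days in pineal and brain. Between night and day they were 1 of 5 in pineal and 0 of 1 in brain. The 9 calls between the tissues over all ages remained under each alternative, and with each array left out the number of calls was 9. An added constant of 64 gave 5 calls between the tissues at 10 days, 10 between the stages in brain and 15 between 10 and 3 days in pineal. Night-day counts were the least stable: in pineal there were 3 calls with median centring, 3 with array weights and 2 with only the arrays compared, and in brain 16, 2 and 0 with array weights, only the arrays compared, and the arrays of a gapdh ratio above 3 removed. Array weights also gave 1 call between the adult ages in brain and 1 for tissue by time of day. With each array left out in turn the counts ranged from 3 to 6 for night-day in pineal, where 3 followed the loss of day replicate 2 of 3 days, day replicate 5 of 5 days, day replicate 3 or night replicate 1 of 3 months, or night replicate 4 of 1 to 2 years, and from 1 to 2 for night-day in brain. The cause was not tested.

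With the replicate number as a block, limma called 9 members between the tissues, 23 and 21 between the stages in pineal and brain, and 5 and 1 between night and day. No other call was lost than slc30a9 at 1 to 2 years. Same-numbered arrays of an age and tissue correlated at -0.162 to 0.167 over 32 pairs, 2 of them above 0.1, and those of an age and time did so above 0.1 in 5 of 6 pairs at 1 to 2 years.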

Other observations

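Transport genes outside the slc names were read on the same arrays. Of 43 genes for sodium-potassium pumps, vacuolar proton pumps, aquaporins, organic anion carriers and ABC transporters, 2 were higher and 6 lower in pineal than in brain over all ages, with a median of -0.27, where 2.51% of all probe sets were higher and 3.28% lower, with a median of 0.02. The list also held bsg and emb, partner proteins of monocarboxylate carriers, and abce1, abcf1 and abcf2a, whose products are not transporters, and over all 48 the counts were 2 and 6 and the median -0.25. At 1 to 2 years the 12 vacuolar proton pump subunits had a median of -1.14, with 7 lower and none higher, where 10.3% of all probe sets were lower and 10.9% higher, and atp6v1b2 was at -2.79 (limma adjusted p = 5.56e-15). Of 12 neuronal markers, 9 were lower and 2 higher in the same arrays. Among the lower were gad2 (-4.70), gad1b (-4.24) and snap25a (-3.59), and the higher were inaa (3.57) and atp1a3b (1.52). The pump subunits atp1a3a (-2.59) and atp1a3b are themselves on that list, and the part of neurons was not tested. Among 13 sodium-potassium pump subunits 3 were higher and 6 lower: atp1b2b was at 1.81, and atp1b3b and atp1b1b were at -3.13 and -2.82. Of 5 aquaporins, 3 were higher, with aqp3a at 3.06 and aqp1a.1 at 2.05 (adjusted p = 2.46e-10 and 1.57e-13). aqp3a encodes a water and glycerol channel found in skin among other tissues, and the skin markers were higher in the same arrays; their part was not tested. At night in pineal 1 of the 48 was called, atp6v1ba (0.21, adjusted p = 0.0491), against 2.64% of all probe sets.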
